A study of Homo sapiens with 30 samples.

Results

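The human mitochondrial genome carries 37 genes, and all 37 were followed here in 3 acute myeloid leukemia (AML) cell lines. They were chosen by chromosome, as every gene that the annotation places on chrM, and all were listed in both count tables, among 60675 genes for overexpression and 58051 for knockout. The genes are 13 mRNAs, 2 ribosomal RNAs (rRNAs) and 22 transfer RNAs (tRNAs). MV4-11 and Molm-14 are monocytic AML lines with an internal tandem duplication of FLT3 (FLT3-ITD), and THP-1 is a monocytic AML line with FLT3 wild type. For overexpression, cells of MV4-11 and Molm-14 received either a lentiviral pLenti-EF1α-GFP vector with the miR-1 hairpin (OE) or the same vector with GFP alone (EV, empty vector). For knockout, all 3 lines received lentiCRISPRv2 with GFP and 1 guide against MPC1 (KO), which encodes a subunit of the mitochondrial pyruvate carrier, or its EV control. Each of the 10 groups had 3 libraries, 12 for overexpression and 18 for knockout. The labels do not say whether replicates were separate cultures, so the p-values below measure the spread between libraries, which may be technical. Both series compared bulk RNA, in which fewer mitochondria per cell and less RNA per mitochondrion cannot be told apart.

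Mitochondrial DNA is a closed circle transcribed from both strands into long precursors. The tRNAs stand between most of the mRNAs and rRNAs, and cutting at the tRNAs releases the separate transcripts. The mRNAs encode subunits of complexes I, III, IV and V of oxidative phosphorylation (OXPHOS), the process that takes electrons from fuels such as pyruvate to make ATP, and the rRNAs and tRNAs serve the mitochondrial ribosome that translates them. Most genes are read in the plus direction of the reference, from the heavy-strand promoter. MT-ND6, a subunit of complex I, and 8 tRNAs are read in the minus direction, from the light-strand promoter, and are called minus-strand genes below.

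The sequences of the genes on which the results turn are given from GRCh38, where chrM is 16569 bases long. They are shown 5′ to 3′ on the strand of the gene. The first 100 bases of each rRNA are shown because these transcripts had the largest differences between OE and EV in both lines and between KO and EV in MV4-11. MT-RNR1, the small ribosomal subunit RNA, lies at chrM:648-1601 and MT-RNR2, the large subunit RNA, at chrM:1671-3229, both on the plus strand.
MT-RNR1, chrM:648-747: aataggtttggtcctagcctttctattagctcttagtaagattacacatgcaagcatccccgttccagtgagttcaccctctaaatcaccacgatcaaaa
MT-RNR2, chrM:1671-1770: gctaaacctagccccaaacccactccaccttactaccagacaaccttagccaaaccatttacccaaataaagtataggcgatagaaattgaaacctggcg

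The 5 tRNAs below are shown whole because they separated the cell lines. MT-TT carries threonine and MT-TP proline. They lie side by side at the end of the coding part, on opposite strands. MT-TL1 carries leucine, MT-TW tryptophan and MT-TE glutamate.
MT-TT, chrM:15888-15953, plus strand: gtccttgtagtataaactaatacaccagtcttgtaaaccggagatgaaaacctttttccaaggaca
MT-TP, chrM:15956-16023, minus strand: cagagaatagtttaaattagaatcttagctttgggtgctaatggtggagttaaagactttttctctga
MT-TL1, chrM:3230-3304, plus strand: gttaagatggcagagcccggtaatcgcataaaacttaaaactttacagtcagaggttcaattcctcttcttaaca
MT-TW, chrM:5512-5579, plus strand: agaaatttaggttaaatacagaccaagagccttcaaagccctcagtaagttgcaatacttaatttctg
MT-TE, chrM:14674-14742, minus strand: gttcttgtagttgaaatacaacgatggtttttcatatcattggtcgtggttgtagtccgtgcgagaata

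Some mRNA genes share bases, which limits how their reads can be assigned. MT-ATP8 (chrM:8366-8572) and MT-ATP6 (chrM:8527-9207), both subunits of complex V, share 46 bases, and MT-ND4L (chrM:10470-10766) and MT-ND4 (chrM:10760-12137), both subunits of complex I, share 7 bases. The shared bases are in capitals, with 12 bases on each side.
MT-ATP8 and MT-ATP6, chrM:8515-8584: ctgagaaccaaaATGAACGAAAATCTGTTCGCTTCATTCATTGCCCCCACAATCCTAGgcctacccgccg
MT-ND4L and MT-ND4, chrM:10748-10778: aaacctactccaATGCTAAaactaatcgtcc

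The sequence of mature miR-1 is shown because OE cells were made to express it, with its seed, bases 2 to 8, in capitals.
hsa-miR-1-3p: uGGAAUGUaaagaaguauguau
The 7-base match to that seed, ACATTCC, occurred 0 times on either strand of chrM, so 0 of the 37 genes held it. The 6-base core CATTCC occurred 6 times in sense in 4 genes, MT-ND1, MT-ND2, MT-ND5 and MT-CYB. These counts describe letters in a sequence and say nothing of binding.

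The share of all counts on the mitochondrial genome differed between the series, which came as separate count tables and were never tested against each other. In the overexpression series the 13 mRNAs took 2.68 to 4.31% of all counts in a library, the 2 rRNAs 0.00251 to 0.0260% and the 22 tRNAs 0.0142 to 0.0212%. In the knockout series the mRNAs took 0.138 to 0.388%, the rRNAs 0.00230 to 0.0641% and the tRNAs 0.000317 to 0.00137%. The mRNAs therefore held most mitochondrial counts in every library. The kit removes rRNA before sequencing, so rRNA levels measure what remained after depletion, and how well each library was depleted cannot be told apart from how much rRNA its cells held. A floor of 3 counts corresponds to 1.43e-05 to 1.93e-05% of a library in the overexpression series, and covers counting error only.

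**Figure D1:**
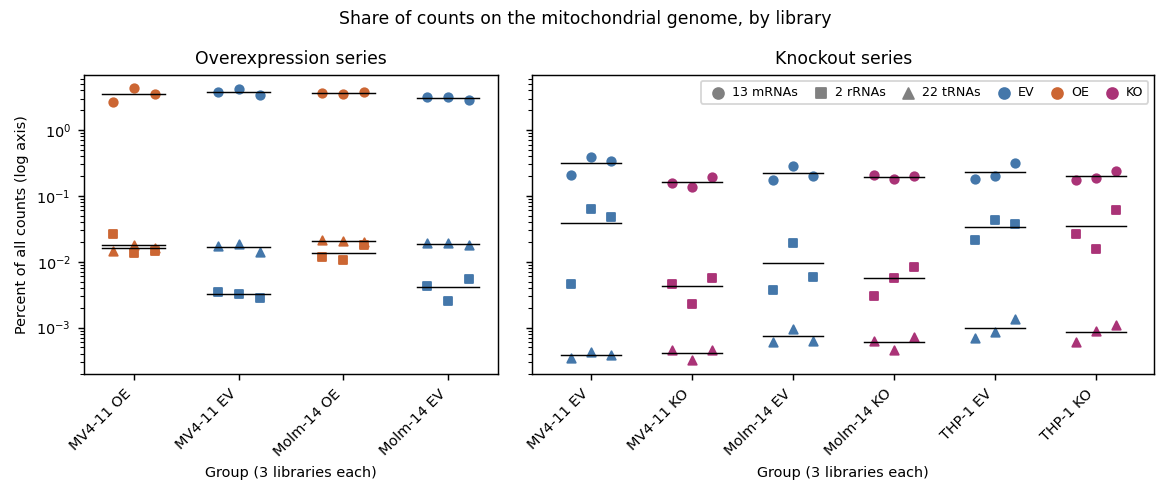
Percent of all counts (log axis) on the 13 mRNAs, 2 rRNAs and 22 tRNAs of the mitochondrial genome, with 1 point per library and a line at the mean of 3 libraries. The rRNA squares of the OE libraries sit above those of the EV libraries in both lines, and the mRNA circles of the knockout series sit between 0.138 and 0.388%.

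Libraries held 15543301 to 20939985 counts for overexpression and 5339360 to 9106478 for knockout. All 8 myeloid markers were above 1 CPM (counts scaled to a common library size) in every library, and at most 1 of 8 markers of other cell types was. The check gene MPC1 was at 56.1 ± 2.33 CPM in MV4-11 EV and 24.8 ± 1.26 in KO, for Molm-14 the values were 77.3 ± 3.85 and 37.4 ± 3.92, and for THP-1 97.0 ± 5.52 and 54.1 ± 4.41 (mean ± SD, n = 3). MV4-11 OE replicate 1 stood apart in interferon-stimulated genes, with a mean log2(CPM + 1) of 5.19 over 14 genes, against 1.07 to 2.92 in the other 11 libraries of its series. That library also had the lowest mitochondrial mRNA share of its series, 2.68%. MV4-11 EV replicate 3 was next among the MV4-11 libraries in interferon-stimulated genes, at 2.92, with the rest at 1.07 to 1.22. It had the lowest mitochondrial mRNA share of its group, 3.38%. In Molm-14 OE replicate 2 had the highest interferon mean, 2.02, and the lowest share, 3.47%. Molm-14 EV had the other order, with the lowest mean, 1.87, and the lowest share, 2.86%, both in replicate 3. Whether the 2 values are linked was not tested. Gene rows named as nuclear copies of mitochondrial DNA held counts equal to 0.649 to 0.795% of the members' counts for overexpression and 0.263 to 1.38% for knockout. The share was larger for MT-ATP6, whose copy MTATP6P1 held 1829 to 4517 counts a library for overexpression, beside 14869 to 41225 for MT-ATP6. For knockout these were 8 to 29 beside 126 to 422. Whether reads were split between a gene and such a copy was not tested.

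Complex IV, which passes electrons to oxygen, gave most of the mitochondrial mRNA counts. Its 3 mRNAs took 55.8 to 66.7% of them in the overexpression libraries and 71.8 to 85.3% in the knockout libraries. The 7 mRNAs of complex I, which accepts electrons from NADH, took 23.9 to 32.5% and 11.0 to 22.2%. MT-CYB, the only mitochondrial mRNA of complex III, took 4.40 to 5.51% and 2.20 to 5.51%, and the 2 mRNAs of complex V, the ATP synthase, took 4.12 to 6.78% and 1.35 to 2.67%.

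Levels of different mRNAs were compared per base that no other gene shares, as a percent of the sum of the 13 values. In the overexpression series MT-CO1, MT-CO3 and MT-CO2, the catalytic core of complex IV, led in that order in all 4 groups. MT-CO1 was at 22 ± 1.59% in MV4-11 EV, 24.1 ± 4.08% in MV4-11 OE, 22.5 ± 1.94% in Molm-14 EV and 19.2 ± 1.07% in Molm-14 OE (mean ± SD, n = 3). The ranges of MT-CO1 and MT-CO3 overlapped in Molm-14 OE and were apart in the other 3 groups. The fourth place was held by MT-ND4 in the MV4-11 groups and by MT-ND1 in the Molm-14 groups.

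In the knockout series MT-CO3 led in all 6 groups, ahead of MT-CO1 and MT-CO2. MT-CO3 was at 49.0 ± 2.89% in MV4-11 EV, 47.5 ± 2.51% in Molm-14 EV and 32.1 ± 1.03% in THP-1 EV. Its values in the overexpression series were 17.9 to 18.3% as group means. MT-ND6 was last in all 10 groups. Lower in the order the levels lay close together, and between 2 and 8 of the 12 pairs of neighbours in a group overlapped between libraries.

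**Figure D2:**
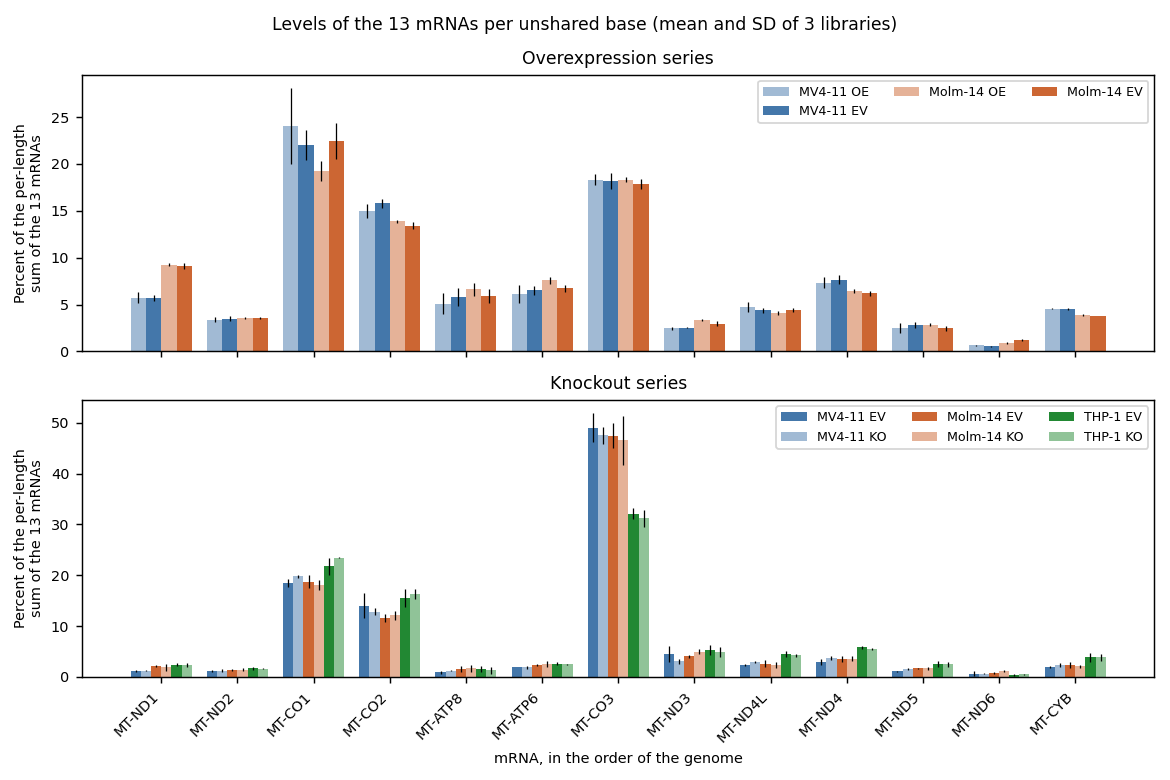
Level of each of the 13 mRNAs per unshared base, as a percent of the sum over the 13, in the order of the genome. Bars are means and lines SDs of 3 libraries, and MT-CO3 reaches 49.0% in MV4-11 EV of the knockout series.

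The first comparison asked how miR-1 OE cells differed from EV cells. The 2 rRNAs had the largest differences of all members in both lines, higher in OE, but did not pass the 5% false discovery rate (FDR) of edgeR over all 17542 genes tested. Counts of MT-RNR2 were 3118, 1891 and 1822 for MV4-11 OE and 398, 452 and 289 for EV. In Molm-14 it had 1445, 1092 and 1678 counts in OE and 430, 285 and 575 in EV. Every OE library was above every EV library of its line.

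MT-RNR1 followed the same pattern. It had 1071, 805 and 791 counts in MV4-11 OE and 194, 213 and 176 in EV, and 1025, 756 and 1094 in Molm-14 OE against 262, 142 and 358 in EV. For MT-RNR2 the log2 fold change was 2.63 (SE 0.373, edgeR FDR 0.0518) in MV4-11 and 1.66 (SE 0.368, FDR 1) in Molm-14. For MT-RNR1 it was 2.23 (SE 0.338, FDR 0.0667) and 1.86 (SE 0.327, FDR 0.713). Over all genes, 5.06% were higher without overlap in MV4-11 and 7.8% in Molm-14.

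The rRNA calls depended on the fit. With the DESeq2 Wald test all 4 passed 5% FDR (4.73e-08 and 5.96e-10 for MT-RNR1 and MT-RNR2 in MV4-11, 1.16e-04 and 0.0130 in Molm-14). The share of all genes that DESeq2 called is not given here. Without MV4-11 OE replicate 1 the log2 fold changes in that line were 2.01 for MT-RNR1 (edgeR FDR 0.109) and 2.27 for MT-RNR2 (FDR 0.0589). RNA5-8SN2, a gene of the cytosolic 5.8S rRNA, had 12, 17 and 21 counts in MV4-11 OE and 30, 20 and 22 in EV, and 44, 25 and 21 in Molm-14 OE and 18, 33 and 14 in EV. Its groups overlapped in both lines, and the part of rRNA depletion in the difference of the mitochondrial rRNAs was not tested.

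**Figure D3:**
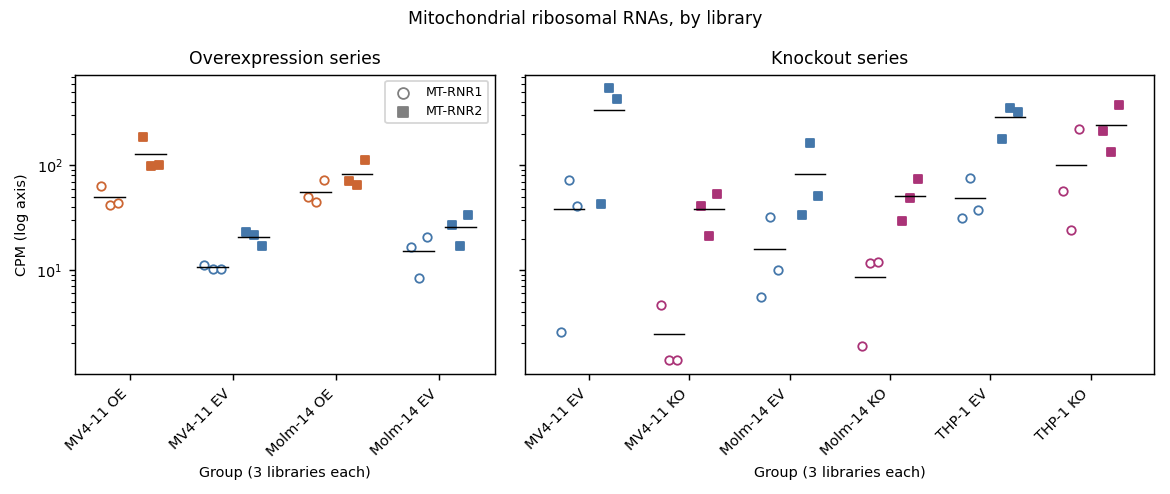
CPM (log axis) of MT-RNR1 (open circles) and MT-RNR2 (filled squares), with 1 point per library and a line at the mean of 3 libraries. The OE points lie above the EV points in both lines of the overexpression series, and the knockout series has wide spreads, such as the MV4-11 EV libraries at 42.7 to 543.9 CPM for MT-RNR2.

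Of the 13 mRNAs 0 were called between OE and EV in either line (0 at an unadjusted edgeR p under 0.05 in both). Across all genes edgeR called 0.177% in MV4-11 and 0.0057% in Molm-14. In MV4-11 the median log2 fold change of the 13 mRNAs was -0.14, against 0.0069 over all genes, and 12 of 13 were below 0, all with overlapping groups. Leaving out 1 library moved that median from -0.44 (without OE replicate 2) to 0.07 (without OE replicate 1), which turned its direction. In Molm-14 the median was 0.34, against 0 over all genes, and 12 of 13 were above 0. All 12 were higher in OE without overlap, against 7.8% of all genes.

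One mRNA of each complex is given by library, in CPM. MT-ND1 was at 1313, 2848 and 1802 in MV4-11 OE and 2111, 2486 and 1755 in EV, and at 3470, 3303 and 3768 in Molm-14 OE and 3034, 2977 and 2470 in EV. MT-CYB was at 1364, 2422 and 1779 in MV4-11 OE and 2004, 2152 and 1760 in EV, and at 1798, 1636 and 1878 in Molm-14 OE and 1464, 1433 and 1270 in EV. In MV4-11 the OE libraries of both genes surrounded the EV libraries, whereas in Molm-14 they were all higher.

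MT-CO1 was at 11074, 14109 and 13062 in MV4-11 OE and 12606, 13848 and 12471 in EV, and at 11795, 11760 and 11662 in Molm-14 OE and 11082, 11132 and 11292 in EV. MT-ATP6 was at 888, 2129 and 1265 in MV4-11 OE and 1612, 1879 and 1286 in EV, and at 1892, 1733 and 2121 in Molm-14 OE and 1513, 1449 and 1190 in EV. For both, Molm-14 OE lay above EV, by 0.07 and 0.47 as log2 fold changes, and the MV4-11 groups overlapped. MT-ND6 was the exception among the mRNAs, with 194, 193 and 163 in Molm-14 OE and 199, 205 and 200 in EV. Its OE libraries were all lower, by -0.13 on the log2 scale (SE 0.201, edgeR FDR 1), and 7.07% of all genes were lower without overlap in that comparison.

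MV4-11 OE replicate 1 was lowest of its group for all 5 of these mRNAs and held the largest share of MT-CO1 among mRNA counts in its series, 42.9%. The other 11 libraries were at 30.3 to 39.1%. Differences between the OE effects in the 2 lines were tested as an interaction. It called 0 of 34 members (3 at an unadjusted p under 0.05, MT-TL1, MT-TS1 and MT-TL2) and 0.0456% of all genes.

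MPC1 knockout was compared with EV in each line, for the question of how loss of the pyruvate carrier bears on transcripts of the respiratory chain. In MV4-11 all 13 mRNAs were lower in KO, with a median log2 fold change of -0.75 against 0.015 over all genes. The test called 3 of the 17 members that passed the filter on low counts, all lower: MT-ND3 of complex I, and MT-CO2 and MT-CO3 of complex IV. Over all genes 5.41% were called and 2.24% were called lower.

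MT-CO3 had 7735, 11060 and 9078 counts in MV4-11 EV and 4534, 4277 and 5783 in KO, for a difference of -0.99 on the log2 scale (SE 0.246, edgeR FDR 0.0375). MT-CO2 had 1457, 3291 and 2435 counts in EV and 974, 1034 and 1458 in KO, a log2 fold change of -1.13 (SE 0.288, FDR 0.0426). As CPM, MT-CO2 overlapped between the groups, since EV replicate 1 (169 CPM) was below KO replicate 3 (183 CPM). MT-ND3 had 183, 549 and 451 counts in EV and 138, 129 and 138 in KO, with EV replicate 1 near the KO libraries (21.2 against 16.2 to 19.6 CPM). Its difference was -1.62 on the log2 scale (SE 0.347, edgeR FDR 0.0195).

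The other complexes are given by library in CPM, for MV4-11 EV and then KO. MT-ND1 was at 29.1, 38.4 and 36.4, and then 17.6, 18.5 and 24.8. MT-CYB was at 55.3, 95.9 and 76.0, and then 44.1, 32.6 and 62.2. MT-CO1 was at 607, 1221 and 1034, and then 503, 443 and 623.
MT-ATP6 was at 28.3, 50.4 and 43.3, and then 18.3, 15.8 and 27.5. MT-ND1 and MT-ATP6 lay below all EV libraries in all 3 KO libraries, and MT-CYB and MT-CO1 overlapped. None of the 4 passed the test, with log2 fold changes of -0.76, -0.71, -0.87 and -0.97 for MT-ND1, MT-CYB, MT-CO1 and MT-ATP6. In all, 6 of 13 mRNAs were lower without overlap, against 9.1% of all genes.

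MT-ND6 was at 13.6, 5.92 and 7.86 CPM in MV4-11 EV and 4.27, 6.27 and 6.91 in KO. MT-ND6 was the only mRNA for which EV replicate 1 was the highest library of its group. The number of calls in MV4-11 KO changed with the libraries kept. Without EV replicate 1, 9 members were called, without KO replicate 3, 5, and without EV replicate 2, EV replicate 3, KO replicate 1 or KO replicate 2, 0.

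The rRNAs of MV4-11 had the largest log2 fold changes in KO and a wide spread in EV. MT-RNR1 had 22, 532 and 266 counts in EV and 33, 11 and 11 in KO (-3.97, SE 1.41, edgeR FDR 0.124). MT-RNR2 had 368, 4040 and 2751 counts in EV and 289, 170 and 427 in KO (-3.12, SE 0.867, FDR 0.0588). EV replicate 1 lay with the KO libraries for both. Without EV replicate 1 the log2 fold changes were -4.54 (FDR 0.0398) and -3.65 (FDR 0.00769). That run drops the EV library that lay against the difference, so its FDRs cannot decide whether the groups differ. With either of the other EV libraries left out instead, neither rRNA was called.

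In Molm-14 and THP-1 the test called 0 of 17 members (0 at an unadjusted p under 0.05 in both), where it called 2.4% and 0.0897% of all genes. The median log2 fold change of the mRNAs was -0.12 (Molm-14) and -0.28 (THP-1), with 10 and 12 of 13 below 0. Without Molm-14 EV replicate 2 the first became 0.058, and without THP-1 EV replicate 3 the second became -0.051. In THP-1 MT-ND2 was lower without overlap, against 6.79% of all genes, and no member was higher without overlap, against 6.8%. In Molm-14 no mRNA was lower without overlap, against 8.0%, and MT-ND6 was higher without overlap, against 8.39%.

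MT-ND6 was at 8.91, 8.55 and 10.9 CPM in Molm-14 EV and 11.5, 13.8 and 12.5 in KO, for a difference of 0.42 on the log2 scale (SE 0.235, edgeR FDR 0.586). MT-CO3 was at 771, 1159 and 813 CPM in Molm-14 EV and 933, 780 and 742 in KO, and at 478, 525 and 793 in THP-1 EV and 439, 454 and 609 in KO. MT-ND3 was at 29.4, 39.1 and 33.0 in Molm-14 EV and 35.8, 38.3 and 39.8 in KO, and at 37, 44.3 and 43.7 in THP-1 EV and 37.5, 30.4 and 33.8 in KO. The groups of MT-CO3 and MT-ND3 overlapped in both lines.
MT-CO2 was at 149, 241 and 196 in Molm-14 EV and 180, 176 and 203 in KO, and at 222, 234 and 285 in THP-1 EV and 217, 217 and 244 in KO. MT-CO1 was at 553, 966 and 634 in Molm-14 EV and 687, 543 and 653 in KO, and at 608, 691 and 1111 in THP-1 EV and 661, 703 and 848 in KO. These groups overlapped as well.

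MT-ND1 was at 36.2, 61.9 and 51.3 CPM in Molm-14 EV and 32.1, 31.0 and 58.4 in KO, and at 45.1, 55.3 and 59.4 in THP-1 EV and 37.9, 50.2 and 47.9 in KO. MT-CYB was at 39.7, 101.6 and 61.7 in Molm-14 EV and 52.1, 45.1 and 62.7 in KO, and at 74.6, 79.4 and 167 in THP-1 EV and 64.5, 88.5 and 116 in KO. MT-ATP6 was at 25.9, 47.5 and 35.7 in Molm-14 EV and 31.2, 29.5 and 47.2 in KO, and at 35.1, 33.8 and 47.8 in THP-1 EV and 27.8, 32.2 and 34.9 in KO. EV replicate 2 was the highest EV library of Molm-14 for all 3, and EV replicate 3 the highest of THP-1.

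The rRNAs of these lines also varied widely within groups. MT-RNR1 had 33, 286 and 76 counts in Molm-14 EV and 12, 88 and 77 in KO, and 234, 511 and 208 in THP-1 EV and 372, 162 and 1336 in KO. MT-RNR2 had 198, 1462 and 387 counts in Molm-14 EV and 185, 364 and 478 in KO, and 1354, 2363 and 1787 in THP-1 EV and 1381, 910 and 2233 in KO. All 4 pairs of groups overlapped.

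The KO effects in different lines share no libraries and were compared by interaction. Between Molm-14 and MV4-11 it called 0 of 17 members (5 at an unadjusted p under 0.05) and 1.48% of all genes. Between THP-1 and MV4-11 it called 0 (5 at p under 0.05) and 0.193%, and between THP-1 and Molm-14 0 (0 at p under 0.05) and 0.766%. The largest difference among the mRNAs was that of MT-ND3 between Molm-14 and MV4-11, at 1.78 (SE 0.482, edgeR FDR 0.0994). The lower mRNA levels of MV4-11 KO were therefore not shown to differ from those of the other lines.

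**Figure D4:**
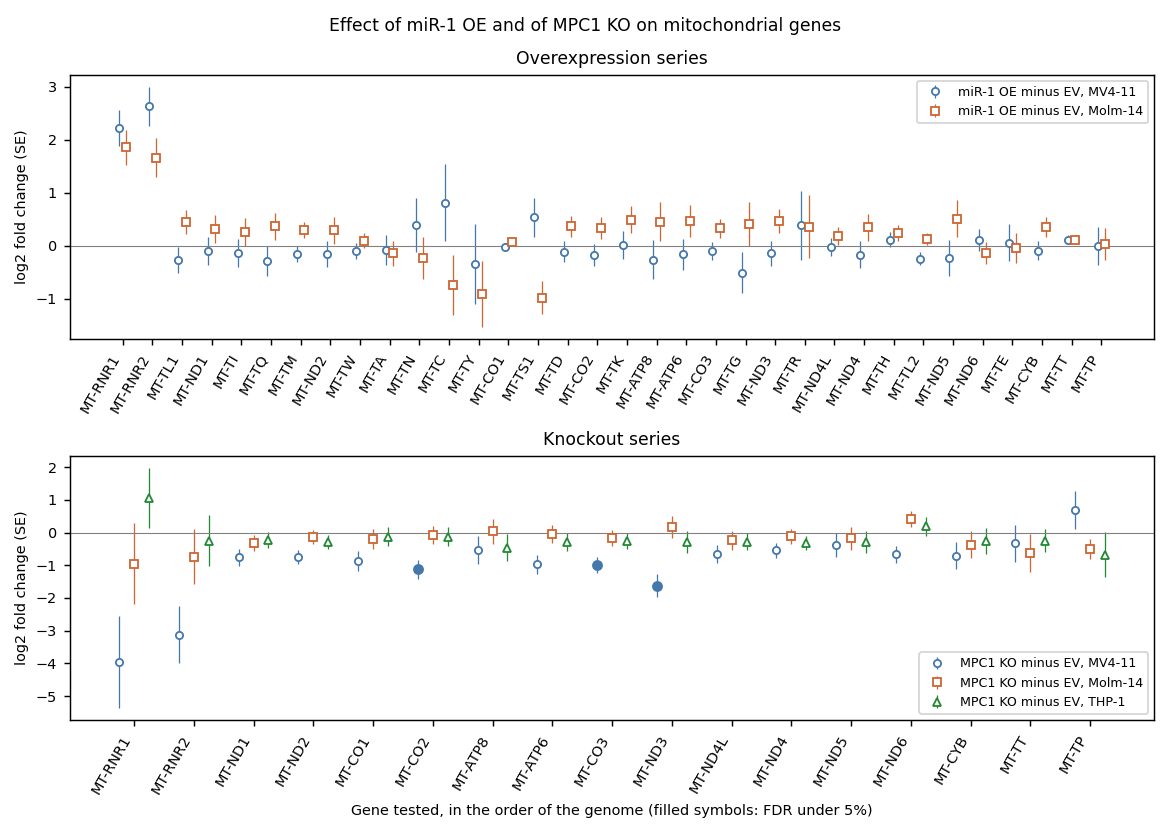
Log2 fold change with its SE for each member tested, OE minus EV above and KO minus EV below, in the order of the genome. MT-CO2, MT-CO3 and MT-ND3 in MV4-11 KO are the only filled symbols (FDR under 5%), and the 2 rRNAs stand highest above 0 in the overexpression series.

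The tRNAs were the smallest class by counts, and their genes are 59 to 75 bases long. In the overexpression series 20 to 22 tRNA genes had a count in a library and 19 of 22 passed the filter, all but MT-TS2, MT-TF and MT-TV. MT-TT gave 34.5% of all tRNA counts (832 to 1555 a library), MT-TW 14.6% and MT-TI, which carries isoleucine, 10.4%. In the knockout series 8 to 15 tRNA genes had a count in a library. MT-TT with 383 counts over 18 libraries and MT-TP with 153 passed the filter, and MT-TN and MT-TK were at 0 in all 18.

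Between OE and EV 0 of 19 tRNAs were called in either line, where 0.177% (MV4-11) and 0.0057% (Molm-14) of all genes were called. At an unadjusted edgeR p under 0.05 there were 0 in MV4-11 and 1 in Molm-14. The 1 was MT-TS1, a serine tRNA of the minus strand, with 1.27, 1.18 and 1.46 CPM in Molm-14 OE and 1.77, 3.05 and 2.87 in EV (log2 fold change -0.97, SE 0.314, edgeR FDR 1). In MV4-11 MT-TL2 alone was lower without overlap, against 4.11% of all genes. In Molm-14 5 of 19 tRNAs were higher without overlap, against 7.8% of all genes, and MT-TS1 alone was lower, against 7.07%. In Molm-14 all 11 plus-strand tRNAs tested were above 0, with a median of 0.30, and 6 of 8 minus-strand tRNAs were below 0, with a median of -0.18.

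In the knockout series MT-TT had 12, 14 and 10 counts in MV4-11 EV and 14, 4 and 11 in KO, 7, 24 and 11 in Molm-14 EV and 11, 1 and 12 in KO, and 36, 45 and 57 in THP-1 EV and 26, 46 and 42 in KO. MT-TP had 4, 2 and 3 counts in MV4-11 EV and 5, 5 and 5 in KO, 16, 33 and 20 in Molm-14 EV and 11, 18 and 15 in KO, and 1, 3 and 6 in THP-1 EV and 1, 2 and 3 in KO. Neither was called in any line, and the MT-TP counts of MV4-11 and THP-1 were at or near the floor of 3. MT-TP in MV4-11 was the only member higher without overlap there, against 15% of all genes.

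The EV libraries allow the cell lines themselves to be compared, within each series. In the overexpression series 14 of 34 members were called between Molm-14 and MV4-11, 11 higher and 3 lower in Molm-14, where 64.8% of all genes were called, 31.9% higher and 32.9% lower. The share called among members was below that of all genes. Where libraries of different lines are said below to lie apart, in either series, the share over all genes was not counted. Of the 8 minus-strand tRNAs 7 were called higher in Molm-14 and all 8 were above 0, with a median log2 fold change of 1.64. MT-ND6, the mRNA of the same strand, was also higher.

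MT-ND6 was at 111, 137 and 84.6 CPM in MV4-11 EV and 199, 205 and 200 in Molm-14 EV, for a difference of 0.86 on the log2 scale (SE 0.204, edgeR FDR 0.00536). MT-TE was at 1.56, 2.7 and 0.943 in MV4-11 EV and 6.06, 6.81 and 6.73 in Molm-14 EV (1.88, SE 0.313, FDR 5.06e-05). MT-TP was at 5.91, 5.59 and 2.00 in MV4-11 EV and 15, 12.3 and 14 in Molm-14 EV (1.6, SE 0.331, FDR 0.00134). In these 3 genes every Molm-14 EV library was above every MV4-11 EV library, and the OE libraries kept that order, with MT-TE at 1.08, 2.84 and 1.56 in MV4-11 OE and 6.46, 6.87 and 5.65 in Molm-14 OE.

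The cluster from MT-TW to MT-TY holds 5 tRNA genes side by side, of which MT-TW alone is on the plus strand. MT-TW was at 19.6, 17.5 and 14.7 CPM in MV4-11 EV and 38.7, 34.5 and 33.8 in Molm-14 EV (log2 fold change 1.04, SE 0.144, edgeR FDR 1.45e-05). MT-TA, an alanine tRNA, was at 1.74, 0.868 and 1.06, and at 3.47, 2.99 and 3.8 (1.49, SE 0.262, FDR 4.84e-05). MT-TN, an asparagine tRNA, was at 0.463, 0.289 and 0.471, and at 1.20, 1.31 and 1.40 (1.68, SE 0.448, FDR 0.00270).
MT-TC, a cysteine tRNA, was at 0.463, 0.0482 and 0.295, and at 1.51, 0.956 and 0.819 (2.05, SE 0.650, FDR 0.00972), and MT-TY, a tyrosine tRNA, at 0.463, 0.579 and 0.0589, and at 1.39, 0.598 and 0.877 (1.32, SE 0.644, FDR 0.0822). The MT-TC call was lost without MV4-11 EV replicate 2 and without Molm-14 EV replicate 1. These 4 minus-strand genes had 1 to 65 counts a library in EV. MT-TS1 was at 0.985, 0.723 and 0.530 in MV4-11 EV and at 1.77, 3.05 and 2.87 in Molm-14 EV (1.77, SE 0.336, FDR 1.14e-04). MT-TQ, a glutamine tRNA, was at 4.17, 4.20 and 3.71, and at 4.35, 6.34 and 8.13 (0.64, SE 0.269, FDR 0.0468), a call lost when any 1 of 5 libraries was left out, all but Molm-14 EV replicate 1. The MT-TQ call was also lost with scaling from nuclear genes only and with total counts left unscaled.

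Plus-strand members called in this comparison were fewer. MT-TL1 was at 3.47, 5.02 and 3.36 CPM in MV4-11 EV and 7.83, 7.53 and 5.67 in Molm-14 EV (0.82, SE 0.239, edgeR FDR 0.00586), and MT-TH, a histidine tRNA, at 5.21, 6.70 and 5.42 and at 8.02, 7.77 and 8.07 (0.46, SE 0.148, FDR 0.0112). MT-TT was lower in Molm-14, at 71.9, 73.5 and 58.3 and at 53.7, 52.7 and 48.7 (-0.40, SE 0.0872, FDR 6.43e-04). MT-CO1 (-0.22, SE 0.0672, FDR 0.0114) and MT-CYB (-0.51, SE 0.188, FDR 0.0417) were also lower, MT-CO1 losing its call without MV4-11 EV replicate 2 and MT-CYB without any 1 of 5 libraries, all but MV4-11 EV replicate 3. With no low-count filter the MT-CYB call was lost too. The MT-TH call was lost without MV4-11 EV replicate 1. Every MT-TL1, MT-TH, MT-TT, MT-CO1 and MT-CYB library of 1 line lay apart from every library of the other.

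The OE libraries of the 2 lines were apart for some of these genes and overlapped for others. MT-ND6 was at 89.1, 143 and 126 CPM in MV4-11 OE, below all Molm-14 OE libraries. MT-TW was at 13.9, 20.8 and 13.4 in MV4-11 OE and 39.1, 40.2 and 35.2 in Molm-14 OE, and MT-TL1 at 2.39, 4.8 and 2.67 and at 11.3, 8.11 and 9.18. MT-TP was at 2.93, 5.84 and 4.78 in MV4-11 OE and 11.8, 14.3 and 16.2 in Molm-14 OE.
MT-TA was at 1.08, 0.981 and 1.39 in MV4-11 OE and 2.89, 3.2 and 3.26 in Molm-14 OE, MT-TQ at 2.57, 2.22 and 5.11 and at 9.39, 7.82 and 7.05, and MT-TH at 6.63, 5.58 and 6.72 and at 10.5, 9.24 and 8.52. MT-TT was at 64.5, 80.3 and 76.1 in MV4-11 OE and 57.2, 54.5 and 56.1 in Molm-14 OE. In these 8 genes the OE groups of the 2 lines lay apart. The OE groups of the 2 lines were not tested against each other, and how many of all genes lay apart was not counted. Between the EV groups 64.8% of all genes were called. MT-TC was at 0.0597, 0.413 and 0.889 in MV4-11 OE and 0.44, 0.948 and 0.599 in Molm-14 OE, MT-TN at 0.119, 0.723 and 0.722 and at 0.929, 1.36 and 1.06, and MT-TS1 at 0.657, 1.08 and 1.5 in MV4-11 OE. MT-TC and MT-TS1 overlapped between the lines in OE, as did MT-CO1 and MT-CYB with the values given above, and MT-TN did not. The strand setting of the counting is not given in the sources used here, and without strand, reads from the 2 strands of the same bases cannot be told apart.

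**Figure D5:**
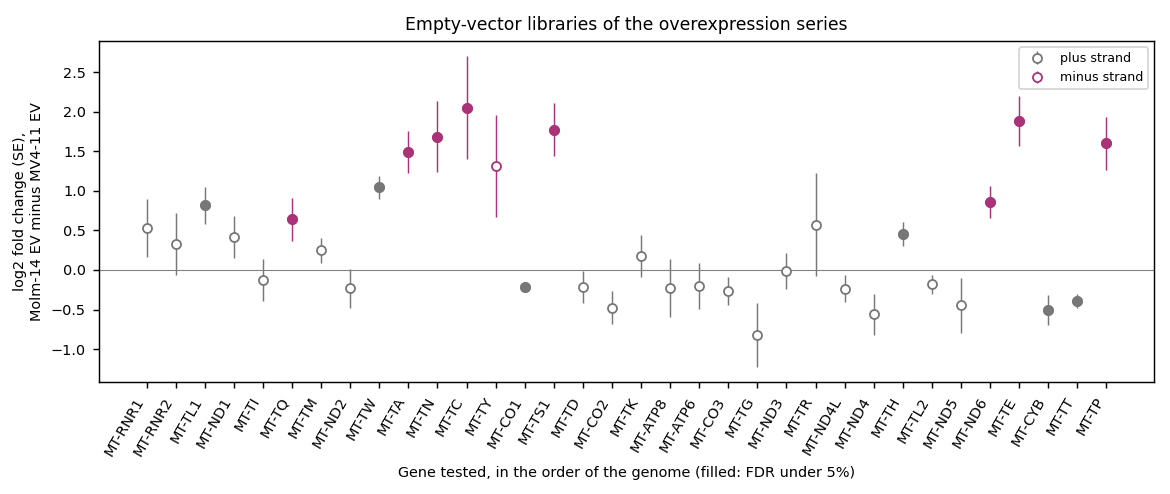
Log2 fold change with its SE between the EV libraries of Molm-14 and MV4-11 in the overexpression series, for each member tested in the order of the genome, by strand. Filled symbols have an FDR under 5%, and the minus-strand genes lie between 0.64 and 2.05.

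In the knockout series the EV libraries of Molm-14 and MV4-11 differed in 3 of 17 members, where 61.7% of all genes were called, 31.6% higher and 30.1% lower. MT-TP was higher in Molm-14 (2.88, SE 0.423, edgeR FDR 1.26e-06), as in the overexpression series, and its call held without any library. MT-CO2 (-0.75, SE 0.285, FDR 0.0371) and MT-RNR2 (-1.99, SE 0.808, FDR 0.0481) were lower, and both lost their calls when MV4-11 EV replicate 2 or 3 or Molm-14 EV replicate 1 or 3 was left out. With no low-count filter both calls were lost too. MT-ND6 had a log2 fold change of 0.03 between the same lines there and was not called.

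THP-1 EV differed from MV4-11 EV in 5 of 17 members, where 67.5% of all genes were called, 34.6% higher and 32.9% lower. MT-TT was higher (2.14, SE 0.431, edgeR FDR 1.85e-04), with 4.79, 6.73 and 10.3 CPM in THP-1 and 1.39, 1.88 and 1.54 in MV4-11. MT-ND1 (0.62, SE 0.247, FDR 0.0379) and MT-ND4 (0.60, SE 0.221, FDR 0.0272) were also higher, and MT-CO3 (-1.08, SE 0.247, FDR 0.00163) and MT-ND6 (-0.88, SE 0.271, FDR 0.00628) lower. MT-ND4 was at 145, 175 and 255 CPM in THP-1 EV and 109, 144 and 125 in MV4-11 EV, with no overlap. The MT-ND1 call was lost without any 1 of 5 libraries, all but THP-1 EV replicate 1, the MT-ND4 call without MV4-11 EV replicate 1 or 3 or THP-1 EV replicate 3, and the MT-ND6 call without MV4-11 EV replicate 1. With no low-count filter the calls of MT-ND1 and MT-ND4 were lost, and with total counts left unscaled that of MT-ND1.

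THP-1 EV differed from Molm-14 EV in 6 of 17 members, where 69.6% of all genes were called, 35.5% higher and 34.1% lower. MT-TT (1.93, SE 0.418, edgeR FDR 3.76e-04), MT-ND4 (0.67, SE 0.222, FDR 0.0154) and MT-ND4L (0.74, SE 0.265, FDR 0.0216) were higher in THP-1. MT-TP (-2.54, SE 0.418, FDR 5.45e-06), MT-ND6 (-0.91, SE 0.271, FDR 0.00468) and MT-CO3 (-0.61, SE 0.245, FDR 0.0394) were lower. MT-ND4L was at 20.9, 31.1 and 39.7 CPM in THP-1 EV and 16.5, 17 and 20.8 in Molm-14 EV. These 2 comparisons share the THP-1 EV libraries. The calls of MT-TT, MT-TP and MT-ND6 against Molm-14 held under every alternative run. That of MT-CO3 was lost without Molm-14 EV replicate 2 or THP-1 EV replicate 1 or 2, that of MT-ND4L without Molm-14 EV replicate 1 or 2 or THP-1 EV replicate 2 or 3, and that of MT-ND4 without Molm-14 EV replicate 1 or THP-1 EV replicate 3. The MT-CO3 call was also lost with DESeq2 size factors, with total counts left unscaled and with no low-count filter.

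Genes of the nucleus that replicate and transcribe mitochondrial DNA, or process, modify, stabilize and degrade its RNA, formed a list of 43. In OE against EV 0 of 43 were called in either line, with medians of 0.0035 in MV4-11 and -0.03 in Molm-14. Of all genes 0.177% and 0.0057% were called there. In KO against EV 2 of 43 were called in MV4-11, where 5.41% of all genes were called, and both were lower, TWNK, the helicase of mitochondrial DNA (log2 fold change -0.58, edgeR FDR 0.0115), and TOP1MT, its topoisomerase (-0.41, FDR 0.00826). None of 43 was called in Molm-14 KO or THP-1 KO, where 2.4% and 0.0897% of all genes were called. Between EV libraries, 38 of 43 were called between THP-1 and Molm-14, all lower in THP-1, where 34.1% of all genes were called lower. Against MV4-11 EV, 28 were called lower and 6 higher in THP-1, where 32.9% of all genes were called lower and 34.6% higher.

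The OXPHOS subunits encoded in the nucleus were counted beside those of the mitochondrion. Of 74 such genes 0 were called in OE in either line, where 0.177% (MV4-11) and 0.0057% (Molm-14) of all genes were called. Their log2 medians in OE against EV were 0.035 (MV4-11) and 0.027 (Molm-14), beside 0.0069 and 0 over all genes. In the same order, 54 and 53 of the 74 were above 0. Of the 73 tested in the knockout series 2 were called in MV4-11 KO, 1 higher and 1 lower, against 5.41% of all genes. In Molm-14 KO and THP-1 KO 0 were called, against 2.4% and 0.0897% of all genes. In KO against EV, the nuclear subunits had log2 medians of 0.051 (MV4-11), 0.077 (Molm-14) and 0.13 (THP-1). Above 0 were 46, 68 and 63 of the 73, in the same order. The 13 mitochondrial mRNAs had medians of -0.75, -0.12 and -0.28, and all genes 0.015, 0 and 0.0034. Leaving out 1 library moved the Molm-14 median of the mRNAs as far as 0.058. Between lines 41 of 74 were called in the overexpression series, 24 higher and 17 lower in Molm-14, where 64.8% of all genes were called, 31.9% higher and 32.9% lower. In the knockout series 37 of 73 were called between the same lines, 20 higher and 17 lower in Molm-14, against 61.7% of all genes. THP-1 EV had 38 called lower and 3 higher against MV4-11 EV, where 32.9% and 34.6% of all genes were. Against Molm-14 EV it had 37 called lower and 10 higher, where 34.1% and 35.5% of all genes were.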

How the data were processed

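RNA came from cell lines, was depleted of rRNA (Illumina Stranded Total RNA with Ribo-Zero Plus) and sequenced. The authors trimmed reads with cutadapt 1.16, aligned them with STAR 2.7.6a to GRCh38 and counted them per gene with featureCounts 1.6.3. The strand setting is not given in the sources used here. The deposited values are raw counts per gene. The tables list different numbers of genes, and tests were made within a table. Coordinates and sequences came from GRCh38 and GENCODE, and the mature miRNA from RefSeq.

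edgeR 4.0.16 (R 4.3.3) quasi-likelihood tests, with TMM scaling and filterByExpr, were fitted to all libraries of a series, and p-values were adjusted by Benjamini-Hochberg over the 17542 or 14490 genes tested, with calls at 5% FDR. CPM values are TMM-scaled. DESeq2 1.42.0 was an alternative, with other scalings, no low-count filter, a replicate block, a line fitted alone and leaving out each library. The scripts were tested on simulated data. Every mitochondrial gene was eligible to be named, with values by library for those called, the rRNAs, MT-ND6 and 1 mRNA per complex. The members and lists were chosen with earlier results of these data known. Same-numbered libraries all correlated above 0.1 in their deviations from the group means only in THP-1 KO and EV, at 0.139 to 0.423. There KO replicate 1 and EV replicate 2 also correlated, at 0.211, so the numbers do not establish pairs. The counts of each library are those of the tables, and no column was left out.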

Additional observations from a re-analysis of the deposited data

Results flagged for a closer look

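MT-TP, the proline tRNA of the minus strand, moved in opposite directions under MPC1 KO in the 2 FLT3-ITD lines. Its log2 fold change was 0.69 in MV4-11, where every KO library was above every EV library, and -0.49 in Molm-14, where every KO library was below every EV library. The difference between the 2 effects, -1.18 on the log2 scale, did not pass the test (edgeR FDR 0.432), and neither did the effect in MV4-11 (FDR 0.511) or Molm-14 (FDR 0.645). Of all genes 15% were higher without overlap in MV4-11 KO and 8.0% lower in Molm-14 KO. The MV4-11 values rest on 2 to 5 counts a library, at or near the floor of 3 counts.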

How the results depend on the processing

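No called result changed sign under an alternative, but the median of the 13 mRNAs turned from negative to positive for OE in MV4-11 without OE replicate 1 (0.07) and for KO in Molm-14 without EV replicate 2 (0.058). For miR-1 OE in MV4-11, 0 members were called, against 2 with no filter beyond 1 count, 2 with DESeq2, 2 with the replicate block and 1 with the line fitted alone. In Molm-14, 0 were called, against 2 with DESeq2, 1 with the replicate block and 1 with the line fitted alone. For MPC1 KO in MV4-11, 3 were called, against 9 with DESeq2 and 7 with the replicate block, and 0 to 9 when 1 library was left out. Each of the 3 calls was also lost in some other fit. MT-CO2 lost its call with no filter, with the replicate block and with the line fitted alone. MT-CO3 lost it with no filter, and MT-ND3 with the line fitted alone. The KO effect between Molm-14 and MV4-11 gave 1 with no filter and 1 with DESeq2, against 0. Between EV libraries of the knockout series, no filter gave 1 for Molm-14 against MV4-11 (3 in the first fit) and 3 for THP-1 against MV4-11 (5). Leaving out 1 library gave 0 to 0 for OE in both lines and for the difference of their effects, 0 to 0 for KO in Molm-14 and THP-1, 0 to 2 for both KO differences against MV4-11, and 0 to 0 between THP-1 and Molm-14. It gave 11 to 13 for the lines of the overexpression series (14), and 1 to 5, 3 to 7 and 4 to 6 for Molm-14 and THP-1 against MV4-11 and THP-1 against Molm-14 in the knockout series. Medians of the 13 mRNAs ranged from -0.44 to 0.07 and 0.26 to 0.39 for OE in MV4-11 and Molm-14, and from -0.98 to -0.65, -0.30 to 0.06 and -0.37 to -0.051 for KO in MV4-11, Molm-14 and THP-1, the last without THP-1 EV replicate 3. The replicate block changed no call in THP-1, the only line in which same-numbered libraries all correlated above 0.1. Elsewhere same-numbered libraries correlated at -0.519 to 0.201, and samples share only a number. The causes were not tested, and shares over all genes are not given for the alternative fits. Few counts limit the tRNAs of the knockout series, where 20 of 22 could not be tested.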
